A study of Mus musculus with 4 samples.

Results

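Acan-positive chondrocytes were the 64 barcodes, of 16658 kept in all, that were chosen by their counts of cartilage transcripts: at least 2 UMIs of Acan, the gene of the cartilage proteoglycan aggrecan, and a cartilage collagen transcript beside it. A UMI, or unique molecular identifier, marks 1 captured RNA molecule. A barcode was kept from 1000 UMIs and 500 genes upward if no more than 10% of its UMIs were mitochondrial. The collagen transcript was at least 5 UMIs of Col2a1, 2 of Col9a1 or 5 of Col10a1, and barcodes with any UMI of the endothelial genes Cdh5 and Pecam1, or with 1000 CPM or more of the osteocalcin genes Bglap and Bglap2 together, were left out. CPM are UMIs scaled to a total of 1000000 per member or, for a library, over its summed members. These 8 genes chose the members, so their levels are given as a description, with no test.

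The study asked how the marrow niche of blood stem cells forms, and profiled the marrow of limb bones from C57BL/6 mice of postnatal day 12. Cells negative for CD45 and Ter119 and positive for the viability dye Calcein-AM were sorted from 3 control and 3 mutant mice and sequenced in 4 droplet 3′ libraries. Control 1 and control 2 are labelled control, with no further genotype. Mutant 1 is labelled Prx1-cre;Mettl3-fl/fl, in which the promoter of Prx1 drives Cre in limb mesenchyme and Mettl3, the catalytic subunit of the RNA m6A writer, is floxed, and mutant 2 is labelled only mutant. Which mice went into which library was not found in the labels, and p-values cover no more than the spread between libraries, which may be technical.

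In the growth plate of a long bone, chondrocytes pass through a fixed order of states. Resting cells act as a reserve, proliferating cells stack into columns and lay down type II collagen and aggrecan, prehypertrophic cells start to make the signal Indian hedgehog, and hypertrophic cells swell and secrete type X collagen. The last hypertrophic cells make matrix-degrading and mineral-binding proteins such as Mmp13 and osteopontin where marrow and bone invade the cartilage. Some hypertrophic cells are known to go on to become bone-forming cells.

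The libraries held 21, 9, 10 and 24 members in the order control 1, control 2, mutant 1 and mutant 2, an order kept throughout. Median depth was 9462, 18936, 15209.5 and 23962.5 UMIs per member, from library totals of 47390414 to 116863081 UMIs. Between 2 and 10 kept barcodes were shared by any 2 libraries. Scrublet scored doublets, and a preset number of the highest-scoring kept barcodes was marked in each library (270, 106, 55 and 168). Of the marked barcodes 1 was a member, in mutant 2. Members made up 0.362%, 0.248%, 0.381% and 0.523% of kept barcodes, with exact 95% intervals, for counting error only, of 0.224 to 0.552%, 0.113 to 0.469%, 0.183 to 0.699% and 0.336 to 0.778%. The genotype means differed by 0.147 percentage points, with p = 0.333 in the exact two-sided permutation test over libraries, the smallest p that 2 against 2 libraries can give. The differences within batches were 0.0189 and 0.276 points. With at least 4 Acan UMIs the difference turned to -0.0995 points, and no direction was shown.

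Members just inside and just outside the Acan threshold lay mostly in the mutant libraries. Members with exactly 2 Acan UMIs numbered 1, 0, 6 and 5, and members with at least 10 numbered 17, 8, 2 and 5. Barcodes with 0 or 1 Acan UMI that met every other condition numbered 11, 6, 62 and 44, of which 0, 1, 5 and 10 met all 3 collagen thresholds. Acan itself stood at 2269, 3805, 262 and 306 CPM over the summed members of each library, with control members from 246 to 18409 and mutant members from 28.3 to 1936. Col2a1, which encodes the main fibrillar collagen of cartilage, stood at 3941, 4786, 3522 and 4464. The Acan sums of the genotypes did not overlap, while the Col2a1 sums did. Over all genes tested below, 35.6% were lower in both mutant libraries than in both control libraries and 16.1% were higher in both.

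**Figure D1:**
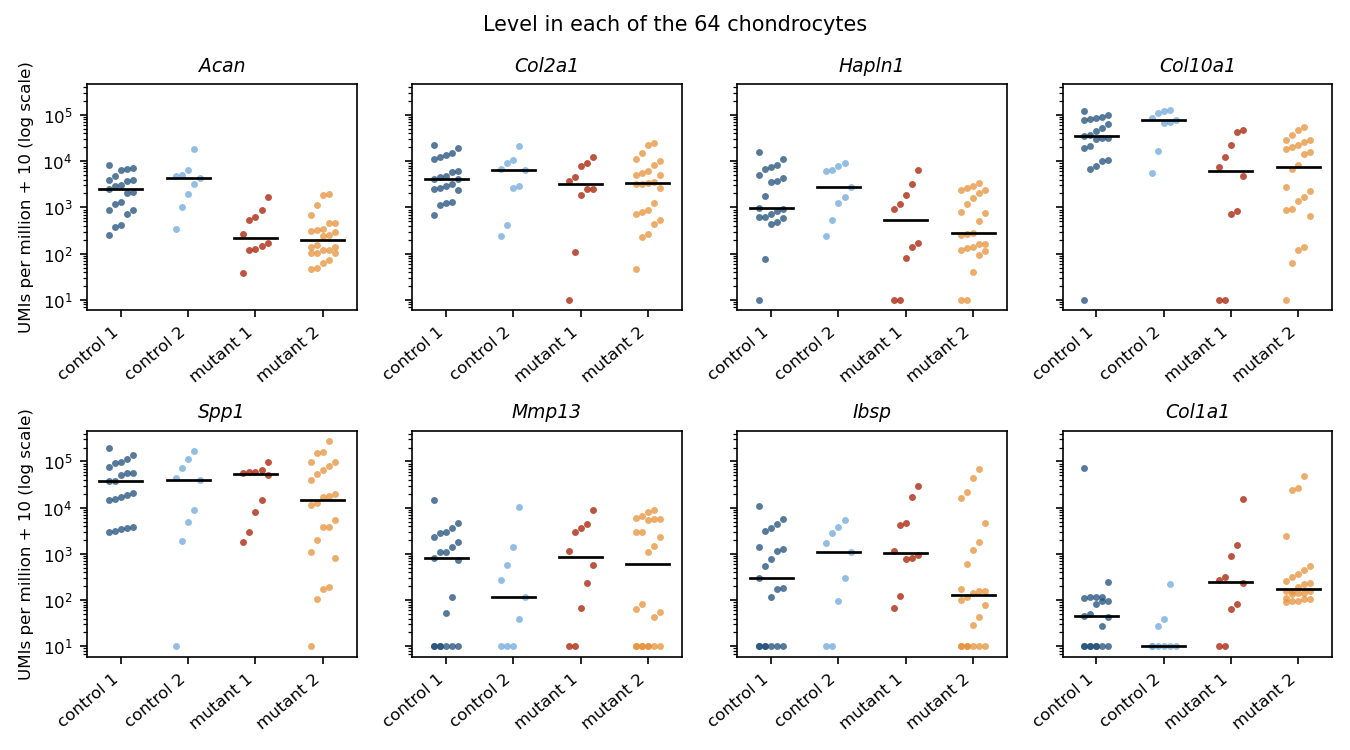
Each point is 1 of the 64 members, placed by library, with its level in CPM plus 10 on a log axis for 8 genes; the bar is the median over the members of that library. Acan medians were 2499 and 4330 in the control libraries and 207 and 186 in the mutant libraries, while Col1a1 passed 10000 in 1 member of control 1, 1 of mutant 1 and 3 of mutant 2.

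Most members carried the markers of their label, and a minority carried markers of bone cells beside them. All 14 genes of the chondrocyte marker list were detected, but 4 of them chose the members. Without those 4 the list summed to 7131, 10339, 7778 and 5667 CPM. Of the 10 endothelial markers, the rule itself kept 2, Cdh5 and Pecam1, at 0, and the others summed to at most 19.8 CPM. The 8 stromal markers summed to 26.0 to 84.0 CPM, with the stromal marker Adipoq and the blood cell marker Ptprc at 0 UMIs in all members. The 10 osteolineage markers summed to 4664, 1734, 18348 and 16523 CPM. Without Bglap and Bglap2, which the rule capped, they summed to 4661, 1728, 18001 and 16350 CPM. The 11 erythroid markers summed to 8178, 576, 42.0 and 20862 CPM, and 3 members (2, 0, 0 and 1) drew at least 1% of their UMIs from globins, a sign of red cell RNA in the droplet. Another 5 members (1, 0, 1 and 3) carried at least 10000 CPM of Col1a1, the type I collagen of bone. Where named, values without these 8 members rest on the other 56.

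Col10a1 split the members along the same line. Of the 64 members, 41 had at least 10000 CPM of Col10a1 (18, 8, 4 and 11), 11 had 1000 to 10000 (2, 1, 2 and 6) and 12 had less than 1000 (1, 0, 4 and 7). The 41 had median levels of 5918 CPM for Col2a1, 2378 for Hapln1, the link protein that ties aggrecan to hyaluronan, and 23436 for Mgp, a secreted inhibitor of mineralization. The 12 had medians of 803, 87.3 and 121 for the same genes. For some genes of bone formation the medians ran the other way. Ibsp, the mineral-binding bone sialoprotein, had a median of 165 in the 41 and 7724 in the 12. Col1a1 had medians of 74.4 and 1961, and Sp7, a transcription factor of osteoblasts and hypertrophic chondrocytes, had a UMI in 10 of the 41 and in 11 of the 12. Median depth was 14281 UMIs in the 41 and 34946.5 in the 12; a member with more UMIs reaches a threshold in UMIs at a lower CPM. Spp1, the gene of osteopontin, did not follow, at medians of 38897 in the 41 and 15909 in the 12. Sox9, a cartilage transcription factor, had a UMI in 17 of the 41 and 10 of the 12, at medians of 0 and 48.0. The 12 meet the rule, but their values of Col2a1, Hapln1, Mgp and Col1a1 go against the label. Ibsp and Sp7 are genes of hypertrophic chondrocytes as well as of bone cells. The prehypertrophic genes Pth1r, Panx3 and Mef2c, described below, had higher medians in the 12, at 497, 259 and 379 against 149, 0 and 0. Ihh, another prehypertrophic gene, had a UMI in 17 of the 41 and in 0 of the 12. These 12 are called Col10a1-low members below. The boundaries are set on a continuous range: 3 members lay at 800 to 1250 CPM and 4 at 8000 to 12500.

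**Figure D2:**
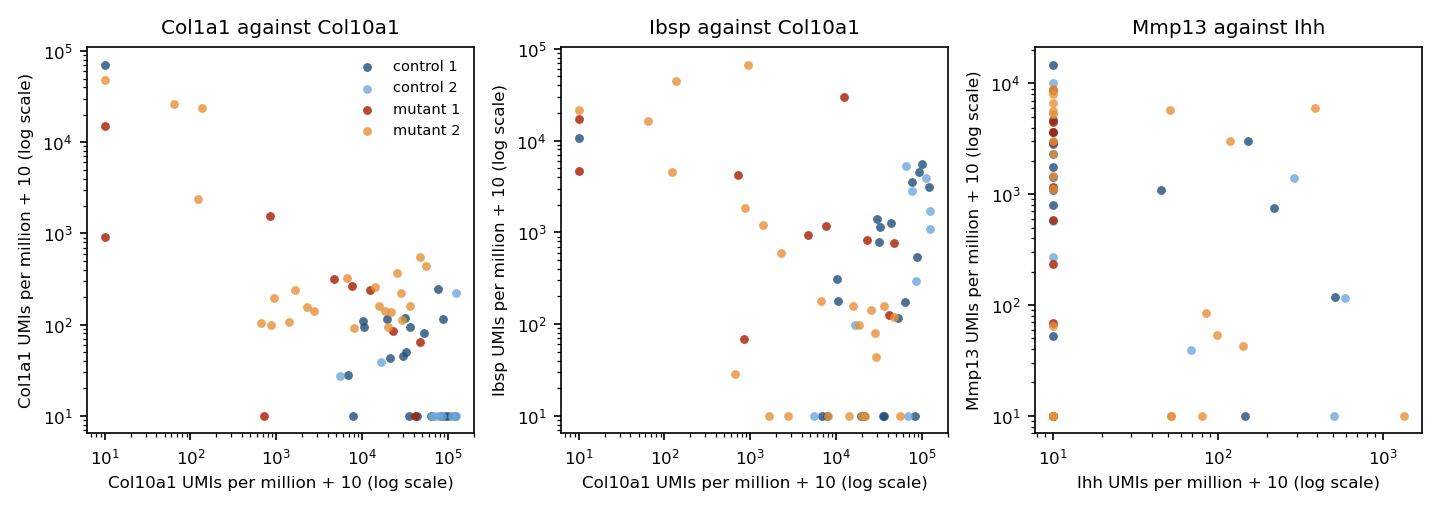
Each point is 1 member, coloured by library, with both axes in CPM plus 10 on log scales; the panels show Col1a1 and Ibsp against Col10a1, and Mmp13 against Ihh. The 5 members above 10000 for Col1a1 all lie below 1000 for Col10a1. An Mmp13 UMI was found in 13 of the 19 members with an Ihh UMI and in 31 of the 45 without.

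Transcripts of resting chondrocytes were sparse. Of 17 resting zone genes, 14 had any UMI and 3 were at 0 in all 64 members: Pthlh, the gene of the hormone PTHrP by which the resting zone holds back hypertrophy, Ucma, a cartilage matrix protein, and Grem1, a BMP antagonist. At this depth a gene at 0 was not detectable rather than shown to be absent. Sfrp5, a Wnt antagonist, had 1 UMI in all, and Foxa2, a transcription factor, had a UMI in 11 members. The genes of the list that were widely detected were Sox4, a transcription factor found in many cell types, in 46 members, Cd200, a surface glycoprotein, in 41, and Clu, the chaperone clusterin, in 32. The list summed to 1668, 2393, 1181 and 1487 CPM, of which Sox4 made 1325, 2076, 441 and 809. Prg4, the lubricin of articular cartilage, had 1 UMI in all, and Cytl1, Otor and Cilp2, other cartilage genes, had none.

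Of 13 columnar genes 4 had a UMI in at least 50% of the members. Hapln1 had a UMI in 59 of 64 members, Matn1, the cartilage matrix protein matrilin 1, in 47, Comp, a matrix protein that binds collagen fibrils, in 43 and Matn3, matrilin 3, in 34. Hapln1 stood at 2038, 2829, 1239 and 628 CPM, and Matn1 at 370, 478, 493 and 273. The control libraries were the higher ones for Hapln1, and the genotypes overlapped for Matn1. Fgfr3, a receptor that restrains growth plate proliferation, had a UMI in 22 members and Epyc, the small proteoglycan epiphycan, in 21. The 13 genes of the list summed to 3445, 4786, 2262 and 1453 CPM.

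Mki67, the proliferation antigen Ki-67, had a UMI in 14 members (3, 3, 3 and 5) and Top2a, a topoisomerase of dividing cells, in 12 (3, 2, 3 and 4). At least 1 UMI of a proliferation gene was found in 38 members, and 10 or more in 7. Of these 7, 2 were globin-rich control 1 members, 2 were Col1a1-rich members of mutant 1 and mutant 2, and 3 were neither, including the member of mutant 2 marked as a doublet. With each member thinned to 1000 UMIs, a proliferation UMI was expected in 17.1%, 9.42%, 18.5% and 12.2% of members, against 42.9%, 77.8%, 50% and 70.8% without thinning. Globin-rich barcodes of the same libraries gave 67.1 to 91.4% after thinning and barcodes rich in the osteocalcin genes 9.87 to 29.5%. The mutant minus control difference was 2.04 points (p = 0.667, exact permutation test). It turned to -1.82 without control 2, to -1.10 without mutant 1 and to -0.680 without the 8 members named above, so no direction was shown.

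**Figure D3:**
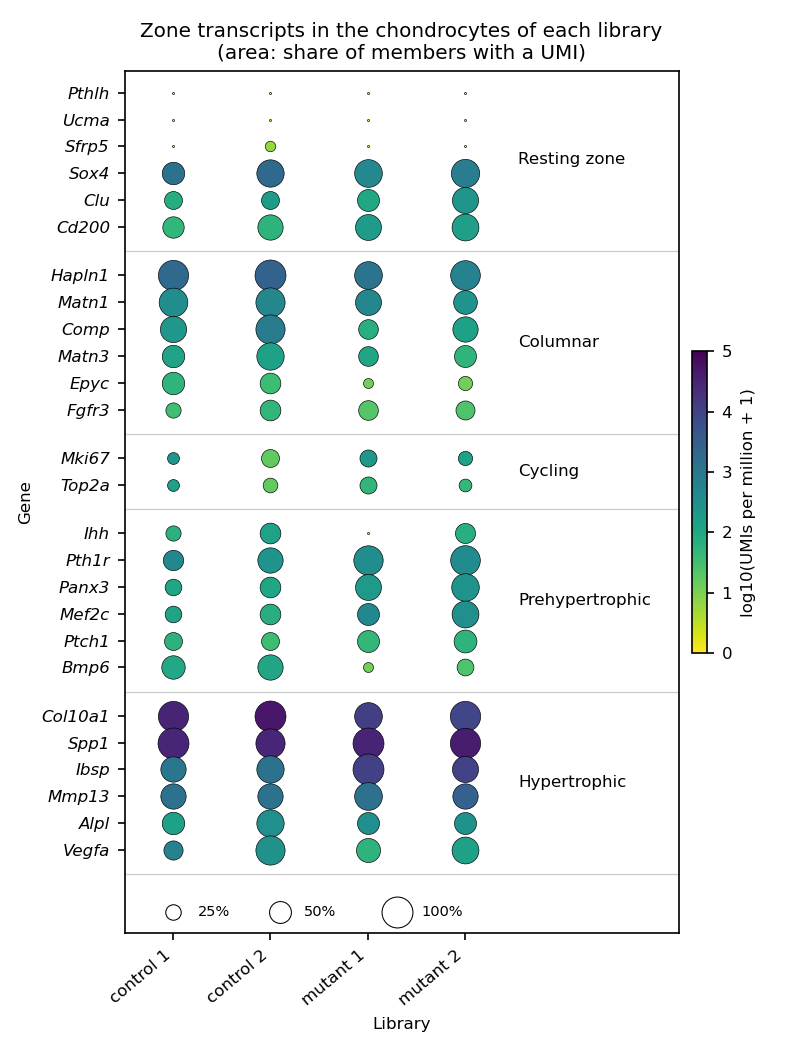
Rows are genes of the growth plate zones and columns the 4 libraries; the area of a circle is the share of members with a UMI and its colour log10 of the summed level in CPM plus 1. Resting genes Pthlh and Ucma are at 0 in every library, whereas Col10a1 and Spp1 reach at least 9125 CPM in each.

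Prehypertrophic genes reached from 4 members (Clec3a) to 46 (Pth1r). Ihh, the gene of Indian hedgehog, had a UMI in 19 members (5, 4, 0 and 10), which is 29.7%. In mutant 1 none of 10 members had one, which allows a share of up to 30.8% (exact 95% interval, for counting error only). Pth1r, the receptor of PTHrP, had a UMI in 46 members, and Ptch1, the hedgehog receptor whose gene is itself a hedgehog target, in 28. Gli1, the other common hedgehog target, had 1 UMI in all. Panx3, a channel of prehypertrophic cells and osteoblasts, had a UMI in 36 members and Mef2c, a transcription factor that drives hypertrophy, in 33. Bmp6, a BMP ligand, stood at 99.1, 114, 10.5 and 23.8 CPM. Its genotypes did not overlap, and its difference missed the threshold (log2 -2.24 ± 0.55 SE, adjusted p = 0.0815 in edgeR).

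The 19 members with an Ihh UMI, none of them from mutant 1, had higher median Col10a1 and lower median Spp1 and Mmp13 than the others. Their medians were 29077 CPM for Col10a1 and 5499 for Spp1, the gene of osteopontin, against 10408 and 39041 in the other 45. Median Acan was 1845 against 521, and median Mmp13, the collagenase of the terminal hypertrophic zone, was 74.3 against 1087. Median Vegfa was higher in them, at 210 against 45.5, and Alpl stood at 29.3 against 37.7. Median depths were 20147 and 17985 UMIs. The members with at least 1000 CPM of Mmp13 numbered 29, and their median Spp1 was 66533 against 3851 in the other 35, at median Col10a1 of 30106 and 18575. Of the 64 members, 13 had UMIs of both Ihh and Mmp13, 6 of Ihh alone, 31 of Mmp13 alone and 14 of neither. Cells were not tested against each other here, since they are not replicates.

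Hypertrophic transcripts were found in most members. Of 22 hypertrophic genes, 21 had a UMI, and with Col10a1 left out the list summed to 35560.3, 36551, 46179 and 55465 CPM. Col10a1 reached 5 UMIs, itself a threshold by which members could enter, in 58 of 64 members (90.6%). It was at 31858, 48967, 11950.2 and 9125 CPM. Spp1 had a UMI in 62 members, at 29069.9, 30940.2, 31867 and 40485, and Mmp13 in 44, at 1291, 1292, 1422 and 2878. Free RNA can give such UMIs in cells that do not express a gene. After thinning, Spp1 was expected in 81.2 to 99.3% of members and Mmp13 in 29.1 to 53.4%. Globin-rich barcodes gave 1.44 to 28.6% and 0.200 to 6.91%. Barcodes rich in the osteocalcin genes gave 66.2 to 92.7% and 7.49 to 46.3%, so Spp1 was not particular to members. Alpl, the phosphatase needed for mineralization, had a UMI in 35 members, and Vegfa, the vessel growth factor of hypertrophic cartilage, in 40. Phospho1, a phosphatase of mineralizing vesicles, had only 2 UMIs.

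The share of members with at least 5 Col10a1 UMIs was 95.2%, 100%, 80.0% and 87.5%. The mutant minus control difference was -13.9 points, -15.2 and -12.5 points within the batches, and -8.06 points without the 8 members named above. After thinning to 1000 UMIs, with 1 Col10a1 UMI as the threshold, the difference was -23.9 points, and at 1000 CPM, with shares of 95.2%, 100%, 60% and 70.8%, it was -32.2 points. This count is a threshold of the rule, which members below it could pass only through Col2a1 or Col9a1, so these values are a description.

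Mettl3 had 7, 6, 0 and 4 UMIs in the members, or 23.1, 31.1, 0 and 5.60 CPM, too few to test. A 3′ tag outside the floxed part would not report the deletion, and the labels do not say which part is floxed. Klf2, a transcription factor of the KLF family, stood at 618, 348, 205 and 305 CPM, and its difference did not pass the test (log2 -0.54 ± 0.40 SE, adjusted p = 0.516 in edgeR).

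Genotypes were then compared on counts summed over the members of each library, with edgeR's quasi-likelihood test and batch as a term. Because control 2 holds 9 members, under the minimum of 10 set for this test, the fit was added after the numbers were known and rests on 1 residual degree of freedom. Of 3920 genes, 161 passed an adjusted p of 0.05, which is 4.11%: 111 were higher in mutants (2.83%) and 50 lower (1.28%). The count was 409 without control 1, 65 without mutant 1, 39 with at least 4 Acan UMIs and 35 with no batch term. It was 205 without the 8 globin-rich or Col1a1-rich members, with 133 genes shared, and 12 in the 41 members with at least 10000 CPM of Col10a1, with 7 shared. Col10a1-low members were 1 of 30 control and 11 of 34 mutant members and held 47.7% of the UMIs of the mutant members. Of the 111 higher genes 64 had more than that share of their mutant UMIs in Col10a1-low members, and of the 50 lower genes 4 had. The median share was 49.6% over the higher genes, near that of all UMIs, and 24.6% over the lower genes. The median of the higher genes covers unlike values. The ribosomal protein genes Rpl41 and Rps29 had 52.6% and 46.0%, whereas Ibsp and Tnc had 91.9% and 98.2% and Hp had 22.7%. A count of genes above 47.7% was not made over all genes tested. The part of Col10a1-low members in the differences was not tested beyond the sets of members given here.

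Of the 111 genes called higher in mutants, 55 were ribosomal protein genes, and others encode bone matrix proteins. Rpl41 and Rps29, of the large and small ribosomal subunits, were among the 10 higher genes with the smallest p (both adjusted p = 0.0169 in edgeR, log2 1.64 for Rpl41) and were called in 0 of the 4 fits leaving out 1 library (adjusted p = 0.0601 to 0.9992). Ibsp stood at 1077, 1282, 10554 and 10188 CPM, and rose (log2 3.47 ± 0.21 SE, adjusted p = 0.00458 in edgeR). Col10a1-low members held 91.9% of the mutant Ibsp UMIs, 1 member held 61% of those in mutant 1, and in the 41 Col10a1-rich members the difference was -0.10 ± 2.21 (adjusted p = 0.992). Without the 8 members it was 3.13 ± 0.37 (adjusted p = 0.00155). Without control 2 Ibsp was not called (adjusted p = 0.108). Tnc, the matrix protein tenascin C, rose by log2 5.36 ± 0.52 (adjusted p = 0.0169), with 98.2% of its mutant UMIs in Col10a1-low members. Cdh11, a cadherin of mesenchymal cells, and Olfml3, a secreted glycoprotein, rose by 6.38 and 5.39 (both adjusted p = 0.0169), with 78.0% and 85.3% there. Mef2c rose by 2.36 ± 0.35 (adjusted p = 0.0208) and was at 2.44 ± 0.67 (adjusted p = 0.151) in the Col10a1-rich members; it was not called without control 2 (adjusted p = 0.0613) or mutant 1 (adjusted p = 0.269). Spp1 rose by 0.59 ± 0.10 (adjusted p = 0.0269), a difference that no fit leaving out 1 library called. Col10a1-low members held 73.2% of the mutant Mef2c UMIs, 28.0% of those of Spp1 and 22.7% of those of Hp. Hp, the haemoglobin-binding protein haptoglobin, stood at 3.30, 15.6, 541 and 374 and rose by 6.04 ± 0.65 (adjusted p = 0.0169). It was also called in the Col10a1-rich members, at 5.43 ± 0.76 (adjusted p = 7.3e-04), with 66.0% and 65.9% of its UMIs in 1 member each of mutant 1 and mutant 2.

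Cartilage genes were among those called lower. Of 15 cartilage matrix genes tested outside the rule, 2 fell: Col9a3, a chain of the type IX collagen that coats cartilage fibrils, at 568, 1137, 136 and 150 CPM (log2 -2.19 ± 0.37 SE, adjusted p = 0.0301 in edgeR), and Col11a2, a chain of the type XI collagen in their core, at 353, 420, 78.7 and 39.2 (-2.50 ± 0.46, adjusted p = 0.0364). The median of the 15 was 0.13, against 0.00 over all genes tested, of which 1.28% were called lower. The list went both ways, with 8 of the 15 positive. Without the 8 globin-rich or Col1a1-rich members, 3 of 15 tested were called higher and 2 lower. In the Col10a1-rich members the values of Col9a3 and Col11a2 were negative but not called, at -1.36 and -2.12. Col9a3 was called without control 1 and not without control 2 (adjusted p = 0.0613), mutant 1 (0.346) or mutant 2 (0.185), and Col11a2 was not called without mutant 2 (0.300). Sox9, the master transcription factor of cartilage, stood at 291, 213, 26.2 and 49.0 and just missed the threshold in edgeR (-2.32 ± 0.47, adjusted p = 0.0502). Sox9 fell without the 8 members (-2.61 ± 0.47, adjusted p = 0.00883 in edgeR). A Sox9 UMI was found in 8, 4, 4 and 11 members. The highest member held 41, 23, 2 and 12 UMIs, so the control levels lean on single members. Mgp fell by 1.06 on the log2 scale (adjusted p = 0.0197), with no call in any fit leaving out 1 library or without the 8 members (-0.56, adjusted p = 0.282). Snorc, a membrane proteoglycan of cartilage, was higher in both mutant libraries, at 1863, 2912, 4718 and 3618, and not called (1.16 ± 0.31, adjusted p = 0.105); it rose without the 8 members (1.64 ± 0.39, adjusted p = 0.0284). Hapln1 was not called (-1.12 ± 0.41, adjusted p = 0.204), nor was Mmp13 (0.98 ± 0.31, adjusted p = 0.155).

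Other genes called lower included a growth factor subunit, stress genes and a cell cycle inhibitor. Inhba, a subunit of the TGF-beta family ligand activin A, had 58, 54, 0 and 5 UMIs and fell (log2 -5.31 ± 0.64 SE, adjusted p = 0.0188 in edgeR), as it did in the Col10a1-rich members (-7.87 ± 1.42, adjusted p = 0.00609). Klf9, a KLF transcription factor, stood at 320, 846, 84.0 and 111 CPM and fell in both (-2.17 ± 0.41, adjusted p = 0.0376, and -3.17 ± 0.71, adjusted p = 0.0385). Hspb1, a small heat shock protein, also fell in both (-2.65 ± 0.51, adjusted p = 0.0409, and -4.33 ± 0.93, adjusted p = 0.0295). Ptgs2, the inducible cyclooxygenase, fell by 4.48 ± 0.42 (adjusted p = 0.0169). Inhba and Ptgs2 were called in each of the 4 fits leaving out 1 library. Cdkn1c, a cell cycle inhibitor expressed in hypertrophic cells, fell by 1.98 ± 0.40 (adjusted p = 0.0467), and Frzb, a Wnt antagonist of cartilage, by 2.36 ± 0.42 (adjusted p = 0.0326). Both were negative and not called in the Col10a1-rich members, at -1.66 and -1.33. Jun and Dusp1, immediate early genes, fell by 2.84 and 2.78 (adjusted p = 0.0188 and 0.0218); 1 control 2 member held 82.3% and 77.9% of that library's UMIs. The genotypes overlapped for Jun, at 558, 3908, 42.0 and 582 CPM, and it was not called without control 2 (adjusted p = 0.852). Without mutant 1 none of Klf9, Hspb1, Cdkn1c, Frzb, Jun and Dusp1 was called (adjusted p = 0.207 to 0.933), and Klf9 (0.139), Cdkn1c (0.130) and Frzb (0.185) were not called without mutant 2, nor Klf9 without control 2 (0.163).

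Calls by list are set beside those over all 3920 genes, of which 2.83% were called higher and 1.28% lower. Among 14 hypertrophic genes tested outside the rule 2 rose (Spp1 and Ibsp), among 10 prehypertrophic genes 1 rose (Mef2c), and of 7 columnar and 12 proliferation genes edgeR called 0. Of these, 3 columnar and 5 proliferation genes had an unadjusted p under 0.05, and DESeq2 called 1 of each list. Among 6 resting zone genes tested 2 rose: Gas1, a surface protein of mesenchymal cells, at 0, 0, 10 and 64 UMIs, at least 13.5-fold higher against a floor of 3 counts over both control libraries, and Wif1, a Wnt antagonist, at 3, 2, 13 and 77, not called without mutant 2 (adjusted p = 0.590). Col10a1-low members held 100% of the mutant UMIs of Gas1 and 95.6% of those of Wif1, and neither gene passed the filter for testing without the 8 members. Among 16 osteogenic genes 4 rose. Median log2 differences were 0.22, 0.47, -0.59, 1.40, 2.33 and 0.97 for these lists in that order, beside 0.00 over all genes, and the resting zone median was also 2.33 with Gas1 at its bound. Without the 8 members the medians were 0.10, 0.54, -0.42, 0.07, 0.97 and 0.14, with 2 proliferation, 4 resting zone and 13 osteogenic genes left to test.

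**Figure D4:**
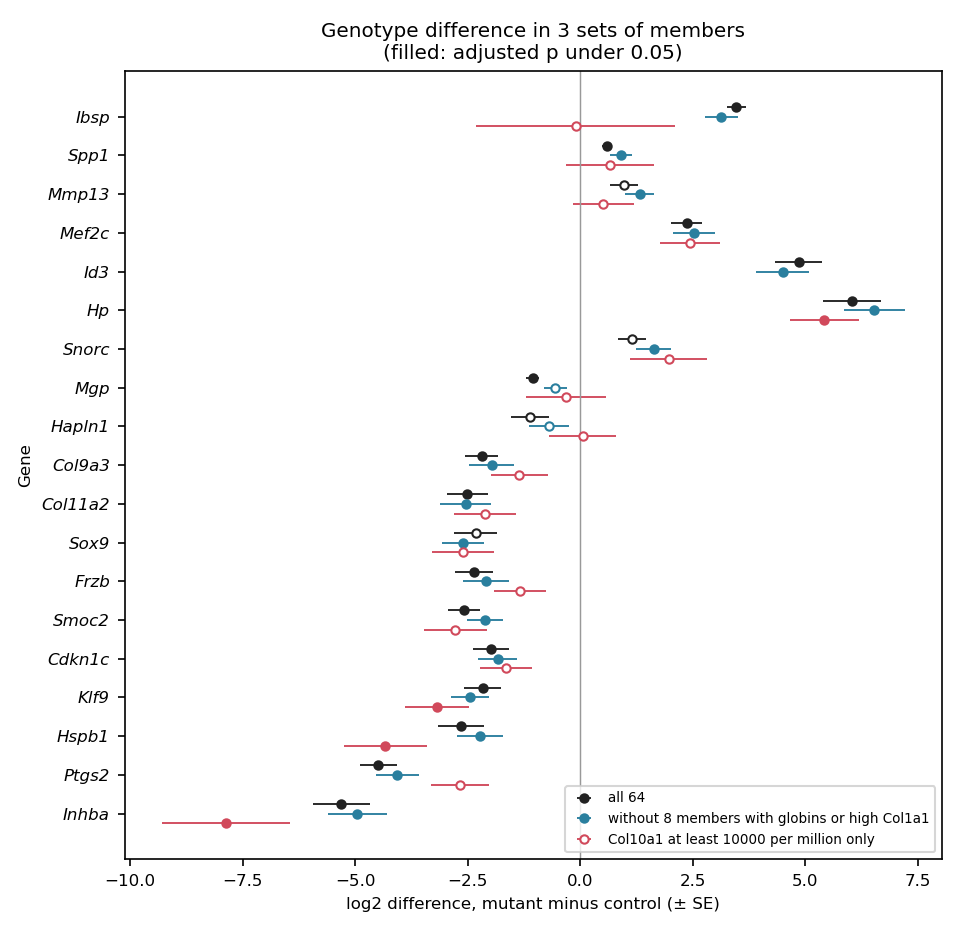
Points are log2 differences (mutant minus control) with their SE from edgeR for 19 genes in all 64 members, in the 56 members without globins or high Col1a1, and in the 41 members rich in Col10a1; filled points passed an adjusted p of 0.05. Ibsp moves from 3.47 to -0.10 between the first and last set, while Hp, Klf9, Hspb1 and Inhba are filled in all 3.

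The comparison of members with and without 5 Col10a1 UMIs could not be run as planned, since only mutant 2 held 3 members of each class. At 1000 CPM, mutant 1 (6 high, 4 low) and mutant 2 (17 high, 7 low) qualified, and 115 of 3106 genes (3.7%) passed edgeR's test with library as a block, 49 higher in the Col10a1-high class and 66 lower. Matn1 was higher in it, at 1128 and 494 CPM against 9.25 and 6.17, as was Hapln1, at 2692 and 1077 against 130 and 86.4, and so was Aldh1a3, a retinoic acid synthesizing enzyme, with no UMI in the low class. Mki67 was lower, at 12.1 and 2.56 against 370 and 296, and so was Nrp2, a semaphorin and VEGF co-receptor, at 36.4 and 15.4 against 1462 and 392. Mki67 had a UMI in only 3 members of mutant 1 and 5 of mutant 2. In each library 1 Col1a1-rich member held the most Mki67 UMIs, 39 in mutant 1 and 78 in mutant 2. Both classes come from the same libraries, and the Col1a1-rich members lie in the low class. The classes are cut on Col10a1, a gene of the rule, and members with under 5 UMIs of it could enter only through Col2a1 or Col9a1. Over all libraries, median depth was 34946.5 UMIs in the 12 Col10a1-low members and 14281 in the 41 with at least 10000 CPM. The calls therefore describe classes that the choice of members helped to shape. Without globin-rich and Col1a1-rich members 0 of 2099 genes passed in edgeR, with 79 at an unadjusted p under 0.05. With at most 5% mitochondrial UMIs 10 genes passed, and with DESeq2 42.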

How the data were processed

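The values the authors deposited are UMI counts, whole numbers by gene and barcode with no normalization, as integer matrices per the file headers. Cell Ranger 5.0.1 made control 1 and mutant 1, and 6.1.2 made control 2 and mutant 2, on mm10, per the submitters' processing notes; this split is the batch term. Headers name Cell Ranger 4 for 3 libraries. No source used here names the counting annotation. Counts of mutant 1 cover only 3352 called barcodes, so free RNA was not measured there. Replicate numbers follow deposition order.

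Levels are CPM over summed members. Exact (Clopper-Pearson) intervals are at 95%. Thinning to 1000 UMIs used the exact hypergeometric chance of keeping a UMI. Doublets were scored with Scrublet in scanpy 1.11.5. The genotype test was the quasi-likelihood test of edgeR 4.0.16 (R 4.3.3; TMM scaling, filterByExpr, Benjamini-Hochberg over all genes tested, threshold 0.05) and DESeq2 1.42.0 as an alternative. On simulated counts for this comparison over 3832 genes, changes of log2 2 were recovered at 49.4% and of log2 4 at 96.7%. The simulation used a common dispersion for all genes and no batch effect. It did not model UMIs carried by single members, so recovery in the data can be lower. Named genes are those of the zone, matrix and regulator lists, the 10 genes with the smallest p in each direction, called list members, Mettl3 and Klf2. Members and lists were chosen with earlier results of these data known. Settings were varied as described in the closing section.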

Additional observations from a re-analysis of the deposited data

How the results depend on the processing

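The number of genes called between genotypes was 161. It was 181 with DESeq2 size factors and 173 with DESeq2's Wald test, 205 without globin-rich or Col1a1-rich members, 411 with no filter on low counts, 35 with no batch term, 39 with at least 4 Acan UMIs, 327 without the member marked as a doublet, 314 with at most 5% mitochondrial UMIs, and 12 in members with at least 10000 Col10a1 CPM. Leaving out 1 library gave 65 to 409, from fits with no batch term in which the lone library of a genotype is assumed to vary like the others. The sets without globin-rich or Col1a1-rich members and of Col10a1-rich members, and the genotype test itself with 9 members in control 2, were chosen after seeing the data. The Col10a1 classes at 1000 CPM gave 115 calls with a library block, 19 without it, 42 with the DESeq2 Wald test, 10 with at most 5% mitochondrial UMIs and 0 without globin-rich or Col1a1-rich members; the cause was not tested. DESeq2 size factors, no filter and leaving out the marked doublet gave 81 to 132. With at least 4 Acan UMIs, at least 5 members a class or 1 library left out, fewer than 2 libraries qualified and no fit was made.

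The share of chondrocytes among kept barcodes turned from 0.147 to -0.0995 points with at least 4 Acan UMIs, and to -4.22 points over members, Bglap-high and Cxcl12-high barcodes together. The share with a proliferation UMI turned from 2.04 to -11.2 points with at least 4 Acan UMIs, to -7.04 with S phase genes and to -0.680 without globin-rich or Col1a1-rich members; leaving out 1 library gave -1.82 to 5.89. Of 52 named genes, those with a reversed sign were Ibsp (-0.97 with at least 4 Acan UMIs, -0.10 in Col10a1-rich members), Mgp (0.082 with at least 4 Acan UMIs), Klf2 (0.024 without control 1, 0.35 with at least 4 Acan UMIs) and Hapln1 (0.052 in Col10a1-rich members). Over their alternatives, 474 of 635 gene results kept direction and side of the threshold. From the labels alone, no paired analysis was possible because they give no replicate numbers. The main fit was blocked by batch instead. Its batch term, from the processing notes, sets 1 control beside 1 mutant library in each batch. Depth limits detection of low genes such as Mettl3, Ihh and Foxa2 in libraries of 9 to 24 members.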

Other observations

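Genes of the ribosomal proteins, a group picked after values were seen, were higher in the mutant members: 83 of 84 tested had a positive difference and 55 were called by edgeR, with a median of 1.37 on the log2 scale. Over all 3920 genes 1964 were positive and 2.83% were called higher. They made up 16.7%, 10.9%, 32.3% and 24.3% of the UMIs of control 1, control 2, mutant 1 and mutant 2 members. Without globin-rich and Col1a1-rich members 72 of 84 were called.

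Among 9 KLF genes tested, 8 had a negative difference, with a median of -1.68 and 1 called, Klf9. Among 11 p53 target genes 10 were negative, with a median of -1.26; edgeR called 0, 6 had an unadjusted p under 0.05 and DESeq2 called 3. Cdkn1a, a cell cycle inhibitor on that list named after its values were seen, stood at 3128, 1806, 404 and 814 CPM (log2 -1.71 ± 0.44 SE, adjusted p = 0.0951). Among 16 immediate early and stress genes 14 were negative and 3 were called lower. Over all 3920 genes, 1956 were negative and 1.28% were called lower.

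Beside the genes of the rule, the genes that set members furthest above the other kept barcodes of their library, chosen after values were seen, included Ffar4, a fatty acid receptor, at 310, 405, 89.2 and 194 CPM against at most 0.979 in the other barcodes, and Rbp4, the retinol carrier, at 941, 1344, 619 and 983 against at most 22.4.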
